A study of Rattus norvegicus with 9 samples.

Results

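The histamine genes described here are 9 genes of rat: the receptor genes Hrh1, Hrh2, Hrh3 and Hrh4, the synthesis gene Hdc, the breakdown genes Hnmt, Aoc1 and Maob, and the uptake gene Slc22a3. They were taken by symbol from the deposited gene tables. Each symbol had 1 row, so the set is 9 of 32623 rows. Of the 9 genes, 5 passed the filter on low counts (Hrh1, Hrh3, Aoc1, Maob and Slc22a3), against 15321 rows in all. The other 4, Hrh2, Hrh4, Hdc and Hnmt, are described by their reads.

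Bulk RNA was sequenced from 9 libraries of wild-type rat oligodendrocyte precursor cells (OPCs), labelled as brain and grown in primary culture. All 9 were taken on day 5 in differentiation medium. Of these, 3 had no compound (basal), and 3 each had bavisant, which blocks the H3 receptor for histamine, at 1 µM or 10 µM. The lower dose is 1 µM in the treatment label and the design text but 1 mM in a protocol, and 1 µM is used here. Every group has libraries numbered P11, P13 and P14, and the meaning of P is not stated. Whether the libraries come from separate cultures or animals is not described either, and spread between them, on which all p-values rest, may be technical.

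Histamine acts on a family of G protein-coupled receptors. H1 couples to Gq and phospholipase C, H2 to Gs and adenylyl cyclase, and H3 and H4 to Gi/o, which lowers cAMP. Histidine decarboxylase (Hdc) makes histamine from histidine, histamine N-methyltransferase (Hnmt) and diamine oxidase (Aoc1) inactivate it, and monoamine oxidase B (Maob) oxidises the methylated product. In the brain, histamine comes from neurons of the hypothalamus and from mast cells, and HNMT is the main route of its removal there.

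Depth ran from 23.9 to 43.1 M estimated reads (M, 1e+06) per library and was lower in the basal group (mean 29.1 ± 4.82, SD, n = 3) than at 1 µM (39.0 ± 4.13) and 10 µM (38.8 ± 0.680). Oligodendrocyte lineage markers were abundant in every library: 9 mature markers summed to 33523 to 51424 TPM (transcripts per 1e+06, a level scaled by gene length) and 7 precursor markers to 2965 to 3372. Astrocyte markers summed to 1374 to 2426 TPM and microglia and macrophage markers to 657 to 1014, so other cell types were present. Of 8 mast cell markers, 4 (Cpa3, Tpsb2, Cma1 and Fcer1a) had no reads in any of the 9 libraries. Kit, which is not confined to mast cells, held nearly all of that list's sum of 5.53 to 8.90 TPM. In bulk RNA, fewer cells of a type and less RNA per cell cannot be told apart.

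The results below turn on 3 of the genes: Hrh3 encodes the receptor that bavisant binds, and Aoc1 and Maob had the highest fold changes at 10 µM. The 250 bases before their annotated starts are shown because the 3 promoters differ in base composition and motifs. The sequences are from RefSeq on build GRCr8, which held 8 of the 9 genes, and read 5′ to 3′ on the gene's strand. Capitals mark matches on either strand to the GC box GGGCGG, the TATA box TATAAA or TGACG, the core of a cAMP response element.
Hrh3 at chr3:187574260-187574509 (minus strand): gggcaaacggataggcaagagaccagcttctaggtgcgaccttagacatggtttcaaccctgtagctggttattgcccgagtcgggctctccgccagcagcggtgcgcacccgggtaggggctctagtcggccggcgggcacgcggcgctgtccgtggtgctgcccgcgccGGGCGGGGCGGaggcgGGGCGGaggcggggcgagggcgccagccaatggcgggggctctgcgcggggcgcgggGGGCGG
Aoc1 at chr4:79142876-79143125 (plus strand): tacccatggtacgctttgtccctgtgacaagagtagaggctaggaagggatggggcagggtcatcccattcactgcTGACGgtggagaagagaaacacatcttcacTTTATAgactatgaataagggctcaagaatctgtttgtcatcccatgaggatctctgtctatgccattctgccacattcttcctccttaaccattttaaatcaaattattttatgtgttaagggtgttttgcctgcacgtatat
Maob at chrX:8490155-8490404 (plus strand): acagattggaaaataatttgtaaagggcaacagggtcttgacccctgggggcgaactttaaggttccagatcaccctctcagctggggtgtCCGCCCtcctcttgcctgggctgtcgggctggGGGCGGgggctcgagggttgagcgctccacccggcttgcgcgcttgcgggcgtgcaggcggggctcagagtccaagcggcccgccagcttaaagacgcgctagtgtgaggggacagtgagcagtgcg
The Hrh3 stretch was 73.6% GC with 4 GC boxes, of which 2 overlap each other, and the nearest lay 6 bases before the start. The Maob stretch was 63.6% GC with 2 GC boxes. The Aoc1 stretch was 43.2% GC, had no GC box, and held TGACG 174 bases and TATAAA, on the opposite strand, 144 bases before the start. The median over 33469 promoters of the same length was 51.2% GC. Of those promoters, 30.5% held GGGCGG, 12.9% held TATAAA and 18.2% held TGACG. Among the histamine genes not shown, Slc22a3 also held 1 TGACG and Hrh4 held 1 TATAAA. Hrh1 and Hdc held 1 GGGCGG each, Hnmt held none of these motifs, and Hrh2 was absent. A match is a description of letters and not a measured binding site.

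Ranked by mean level over the 9 libraries, Maob stood first at 3.91 ± 1.22 TPM (SD, n = 9), followed by Hrh1 at 3.02 ± 0.845, Aoc1 at 2.14 ± 1.90 and Slc22a3 at 1.27 ± 0.178. Hrh3 followed at 0.451 ± 0.189 TPM, then Hrh2 at 0.136 ± 0.0793, Hdc at 0.106 ± 0.0433 and Hnmt at 0.0774 ± 0.0630, and Hrh4 was at 0. The step from Slc22a3 to Hrh3 and the step from Hrh3 to Hrh2 held in 9 of 9 libraries. Neighbours elsewhere in the order changed places in some libraries: Maob was above Hrh1 in 8 of 9, Hrh1 above Aoc1 in 7, Aoc1 above Slc22a3 in 6, Hrh2 above Hdc in 7 and Hdc above Hnmt in 5. The wide spread of Aoc1 came with the P number, as described below.

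**Figure D1:**
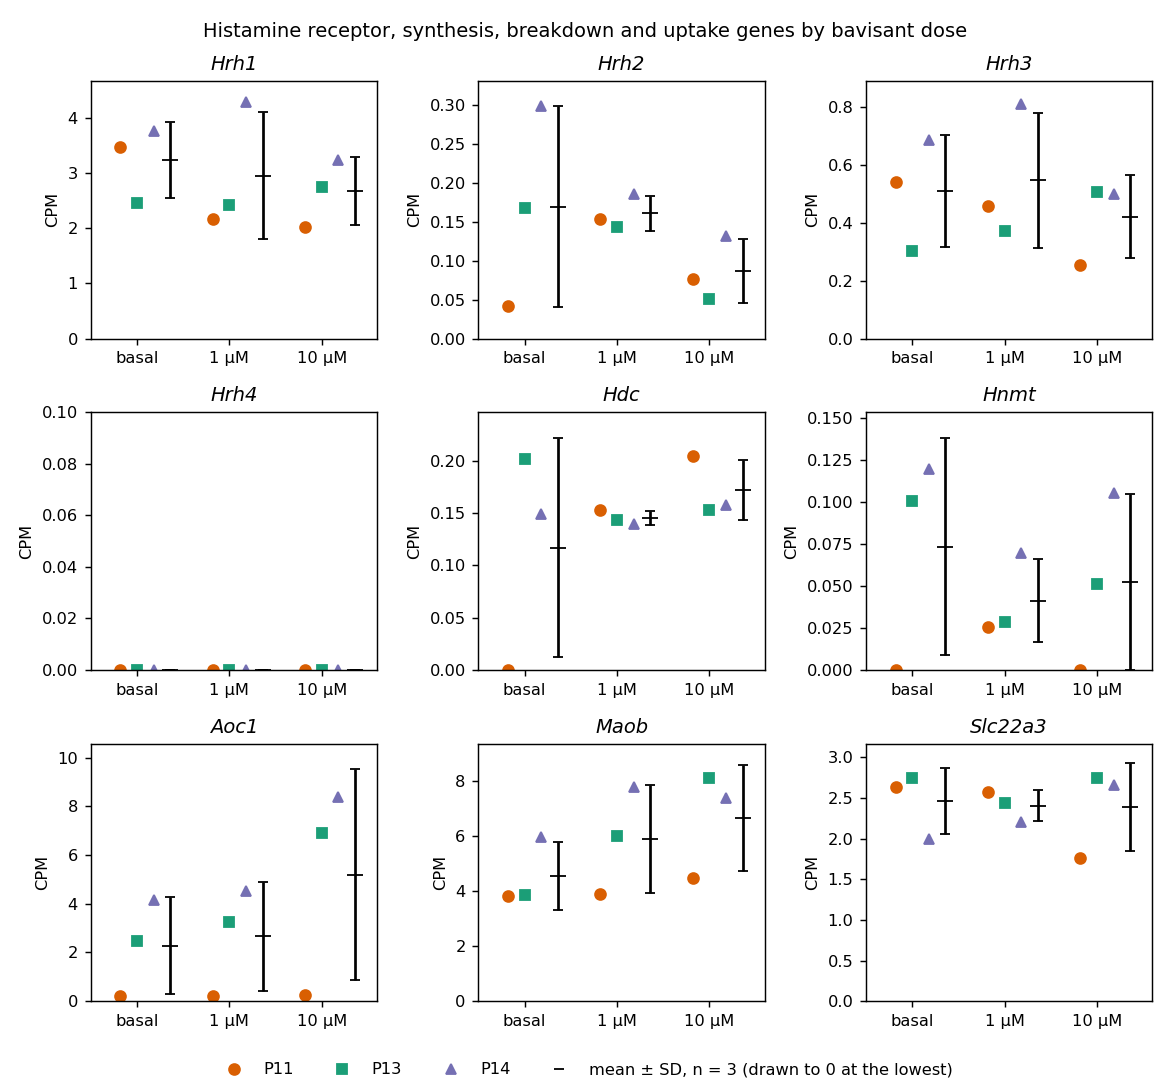
Level of each of the 9 histamine genes in CPM (estimated reads per 1e+06 reads of the library; y axis, a separate linear scale for each gene) against bavisant dose (x axis), 1 symbol per library by P number, with the mean ± SD of 3 libraries. Aoc1 lay between 0.204 and 0.256 CPM in the 3 P11 libraries and between 2.48 and 8.39 in the other 6, and Hrh4 was at 0 throughout.

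The H3 receptor gene Hrh3 (ENSRNOG00000061153) was detected in every library at a low level, and no difference between doses was detectable. The cultures also held astrocyte, microglia and neuron markers, and which cells carried the Hrh3 reads was not tested. It had 13, 9 and 23 reads in the basal libraries (P11, P13 and P14), 18, 13 and 35 at 1 µM, and 10, 20 and 19 at 10 µM. Scaled to depth these were 0.543, 0.302 and 0.687 CPM in the basal libraries, 0.459, 0.373 and 0.813 at 1 µM, and 0.256, 0.509 and 0.500 at 10 µM. The highest library was 1 µM P14 and the lowest was 10 µM P11, and all 3 groups overlapped. The reads summed within a group gave 0.516 CPM (exact 95% Poisson interval 0.376 to 0.691) in basal, 0.564 (0.436 to 0.717) at 1 µM and 0.421 (0.311 to 0.557) at 10 µM, and these intervals cover counting error only. The log2 fold change of Hrh3 at 10 µM against basal was -0.24 ± 0.46 (SE), with a 95% interval of the fold from 0.407 to 1.76 and an adjusted p of 1.00 by edgeR's quasi-likelihood test. With the P number in the fit it was -0.19 ± 0.37 (edgeR adjusted p = 0.793), with a 95% interval of the fold from 0.486 to 1.58. Within the P numbers the sign was mixed, at -1.09, 0.75 and -0.46 on the log2 scale.

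The H1 receptor gene Hrh1 (ENSRNOG00000007420), the most abundant of the 4 receptors, had 83, 73 and 126 reads in the basal libraries, 85, 84 and 184 at 1 µM and 79, 108 and 123 at 10 µM. Its levels were 3.47, 2.45 and 3.76 CPM in basal, 2.17, 2.41 and 4.27 at 1 µM and 2.02, 2.75 and 3.23 at 10 µM. P14 was the highest library at each dose, and the groups overlapped. The log2 fold change at 10 µM against basal was -0.23 ± 0.32 (edgeR adjusted p = 1.00), with a 95% interval of the fold from 0.513 to 1.41, and its sign differed between P numbers (-0.78, 0.17 and -0.22). With the P number in the fit, the log2 fold change was -0.23 ± 0.21 (edgeR adjusted p = 0.559), with a 95% interval of the fold from 0.608 to 1.20. In the fit without the P number, leaving out the 3 P11 libraries gave 0.0094.

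The H2 receptor gene Hrh2 (ENSRNOG00000018260) had 1, 5 and 10 reads in the basal libraries, 6, 5 and 8 at 1 µM and 3, 2 and 5 at 10 µM. Its 3 libraries at 10 µM (0.0768, 0.0509 and 0.132 CPM) all lay below the 3 at 1 µM (0.153, 0.144 and 0.186). It was the only 1 of the 9 genes whose groups did not overlap at 10 µM against 1 µM, where 8.8% of all genes tested did not overlap. The exact two-sided permutation test gave p = 0.1, the smallest that 3 against 3 libraries allow, and 1 after adjustment over the 27 tests of 9 genes and 3 contrasts. The basal libraries spanned 0.0418 to 0.299 CPM and overlapped both doses, and the summed reads gave 0.162 CPM (exact 95% Poisson interval 0.0977 to 0.253) at 1 µM and 0.0859 (0.0412 to 0.158) at 10 µM, intervals that overlap.

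The H4 receptor gene Hrh4 (ENSRNOG00000016887), known mainly from blood cells, had 0 reads in all 9 libraries. The floor used here for a count of 0 is 3 reads, which over the 9 libraries is 0.00935 CPM and covers counting error only.

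The histamine-making enzyme gene Hdc (ENSRNOG00000010262) had 0, 6 and 5 reads in the basal libraries, 6, 5 and 6 at 1 µM and 8, 6 and 6 at 10 µM. The methyltransferase gene Hnmt (ENSRNOG00000005223) had 0, 3 and 4 reads in basal, 1, 1 and 3 at 1 µM and 0, 2 and 4 at 10 µM. Both stood near the floor of detection. The summed Hdc reads gave 0.126 CPM (exact 95% Poisson interval 0.0630 to 0.226) in basal, 0.145 (0.0846 to 0.232) at 1 µM and 0.172 (0.105 to 0.265) at 10 µM. For Hnmt they gave 0.0803 (0.0323 to 0.165), 0.0427 (0.0139 to 0.0996) and 0.0516 (0.0189 to 0.112) in the same order. A difference between doses was not detectable for either gene at this depth. In an edgeR fit with the P number and no count filter, the adjusted p at 10 µM against basal was 0.766 for Hdc, 0.858 for Hnmt and 0.539 for Hrh2. Over the 3 P11 libraries Hnmt had 1 read, against 6 in P13 and 11 in P14.

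**Figure D2:**
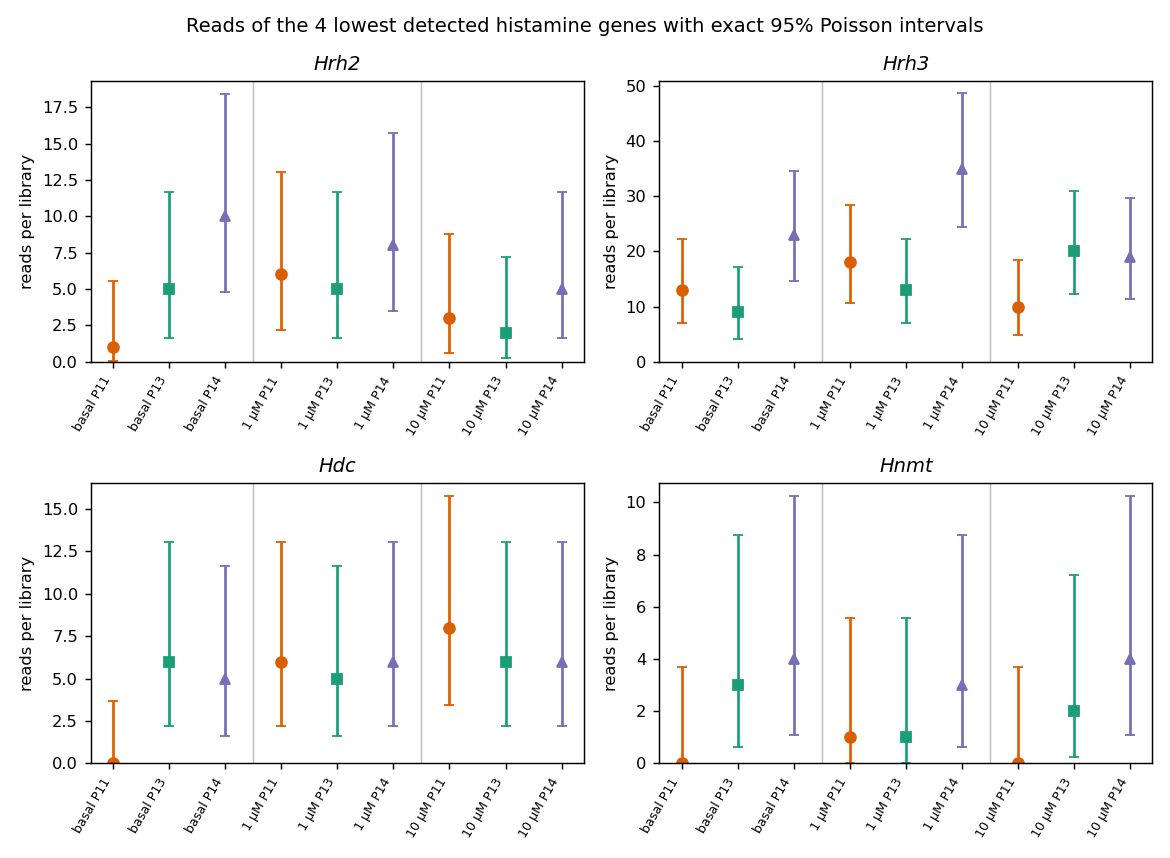
Estimated reads per library (y axis, linear and separate for each gene) of Hrh2, Hrh3, Hdc and Hnmt in the 9 libraries (x axis), with exact 95% Poisson intervals that cover counting error only. Symbols mark P11 (circle), P13 (square) and P14 (triangle), and vertical lines part the doses. Hrh3 reached 9 to 35 reads, while Hrh2, Hdc and Hnmt did not exceed 10.

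Aoc1 (ENSRNOG00000008575) encodes diamine oxidase, the copper enzyme that oxidises histamine and also the polyamine putrescine. It showed the widest differences of the 9 genes, between P numbers and between 10 µM and the other doses. It had 5, 74 and 139 reads in the basal libraries, 8, 113 and 195 at 1 µM and 10, 271 and 319 at 10 µM. As CPM these were 0.209, 2.48 and 4.15 in basal, 0.204, 3.25 and 4.53 at 1 µM and 0.256, 6.90 and 8.39 at 10 µM. The P11 library was the lowest in each group, so the groups overlapped, while P13 and P14 at 10 µM lay above every other library. Group means were 2.28 ± 1.98 CPM in basal, 2.66 ± 2.22 at 1 µM and 5.18 ± 4.33 at 10 µM (SD, n = 3).

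Without the P number in the fit, the log2 fold change of Aoc1 at 10 µM against basal was 1.22 ± 1.33, which did not pass (edgeR adjusted p = 1.00). With the P number as a block, Aoc1 rose at 10 µM by a log2 fold change of 1.20 ± 0.19 (adjusted p = 0.0199), a fold of 2.29 with a 95% interval from 1.70 to 3.09. Against 1 µM it rose by 0.97 ± 0.18 (adjusted p = 0.0295), a fold of 1.96. At 1 µM against basal it did not pass, at 0.23 ± 0.19 with an interval from -0.22 to 0.67 (adjusted p = 1.00). Both comparisons of 10 µM share the same 3 treated libraries. Within the P numbers the log2 ratio at 10 µM against basal was 0.29 in P11, on 5 and 10 reads, 1.47 in P13 and 1.01 in P14.

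The call for Aoc1 depended on single libraries. At 10 µM against basal it was kept without any 1 of the 1 µM libraries or without 10 µM P11. It was lost when a basal library was left out (adjusted p = 0.0580 without P11, 0.129 without P13 and 0.0844 without P14) and when 10 µM P13 (0.0715) or P14 (0.0840) was. Over these 9 blocked edgeR fits the log2 fold change stayed between 1.00 and 1.30, and without all 3 P11 libraries it was 1.30 with an adjusted p of 0.0602. The call against 1 µM was kept without basal P11, basal P13 or 10 µM P11. It was lost without basal P14 (edgeR adjusted p = 0.0590), 1 µM P11 (0.0731), 1 µM P13 (0.118), 1 µM P14 (0.147), 10 µM P13 (0.128), 10 µM P14 (0.114) or all 3 P11 libraries (0.0515).

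The P number moved Aoc1 more than the dose did. In the edgeR fit with dose and P number, Aoc1 was higher than in P11 by a log2 fold change of 4.14 in P13 and 4.65 in P14 (adjusted p = 7.24e-06). Of all genes tested, 51.5% differed between P numbers at an adjusted p under 0.05, and 9 of 15321 (0.0587%), Aoc1 included, were at least as far above P11 in both P13 and P14. Neuron markers moved the same way, at a summed 200 to 226 TPM in the P11 libraries against 336 to 469 in the other 6, while mural and fibroblast markers summed to 220 to 328 in P11 against 123 to 199. Within each P number the neuron sum was lower at 10 µM than in basal, while Aoc1 was higher. It was 226, 469 and 422 TPM in the basal libraries (P11, P13 and P14) and 200, 336 and 337 at 10 µM. The part of the neuron, mural and fibroblast markers in the Aoc1 levels was not tested. By dose, mature oligodendrocyte markers summed to 46227 to 51424 TPM at 10 µM against 34743 to 39358 in basal. By P number their sum was highest in P11 at each dose, where Aoc1 was lowest, and their part was likewise not tested.

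Maob (ENSRNOG00000029778), the mitochondrial monoamine oxidase that acts after HNMT, was the most abundant of the 9 genes. It had 91, 115 and 200 reads in basal, 152, 209 and 335 at 1 µM and 175, 318 and 280 at 10 µM. Its levels were 3.80, 3.86 and 5.97 CPM in basal, 3.87, 6.005 and 7.78 at 1 µM and 4.48, 8.09 and 7.36 at 10 µM. The group means ordered by dose (4.55 ± 1.24, 5.89 ± 1.96 and 6.65 ± 1.91 CPM, SD, n = 3), but the groups overlapped. Maob at 10 µM was higher than in basal within each P number (log2 ratio 0.24, 1.07 and 0.30). Of the 9 genes, Maob and Aoc1 were higher in all 3 P numbers in this comparison, as were 12.2% of all genes tested. At 1 µM against basal only Maob was (0.03, 0.64 and 0.38), against 15.7% of all genes, and at 10 µM against 1 µM Aoc1 and Hdc were, against 10%.

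The difference in Maob did not pass any test of dose. Its log2 fold change at 10 µM against basal was 0.59 ± 0.32 without the P number (edgeR adjusted p = 1.00) and 0.59 ± 0.17 with it (adjusted p = 0.0983), where the 95% interval of the fold ran from 1.14 to 1.98. At 1 µM the blocked log2 fold change was 0.34 ± 0.17, with an interval from -0.06 to 0.74 (adjusted p = 1.00). When 1 library was left out, the blocked value ran from 0.38 (without basal P13) to 0.74 at 10 µM and from 0.14 (without basal P13) to 0.49 at 1 µM. It was 0.39 at 10 µM without 10 µM P13, where the value against 1 µM also fell, to 0.043. Maob differed between P numbers (0.48 in P13 and 0.76 in P14 over P11 on the log2 scale, edgeR adjusted p = 0.0173). That call was lost without basal P14 (0.0658), 1 µM P11 (0.0916), 1 µM P14 (0.0651) or 10 µM P11 (0.0612). Astrocytes are a known site of Maob. Astrocyte markers summed to 1797, 2187 and 2279 TPM in the basal libraries (P11, P13 and P14), 1666, 2009 and 2426 at 1 µM and 1374, 1744 and 1961 at 10 µM. They ordered by P number as Maob did on average, with P11 lowest and P14 highest at each dose, and were lowest at 10 µM within each P number. Their part in the Maob levels was not tested.

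Slc22a3 (ENSRNOG00000022946) encodes the organic cation transporter OCT3, which takes up histamine and other amines. It was the steadiest of the genes that passed the filter, with 63, 82 and 67 reads in basal, 101, 85 and 95 at 1 µM and 69, 108 and 101 at 10 µM. Its levels were 2.63, 2.75 and 2.00 CPM in basal, 2.57, 2.44 and 2.21 at 1 µM and 1.77, 2.75 and 2.66 at 10 µM, with full overlap. The log2 fold change at 10 µM against basal was 0.0017 ± 0.22 (edgeR adjusted p = 1.00), and its 95% interval of the fold ran from 0.701 to 1.43. The sign of this near-zero value turned to -0.042 with library totals as the scaling. With the P number in the fit, the log2 fold change was 0.0094 ± 0.21 (edgeR adjusted p = 0.985), with a 95% interval of the fold from 0.723 to 1.40.

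**Figure D3:**
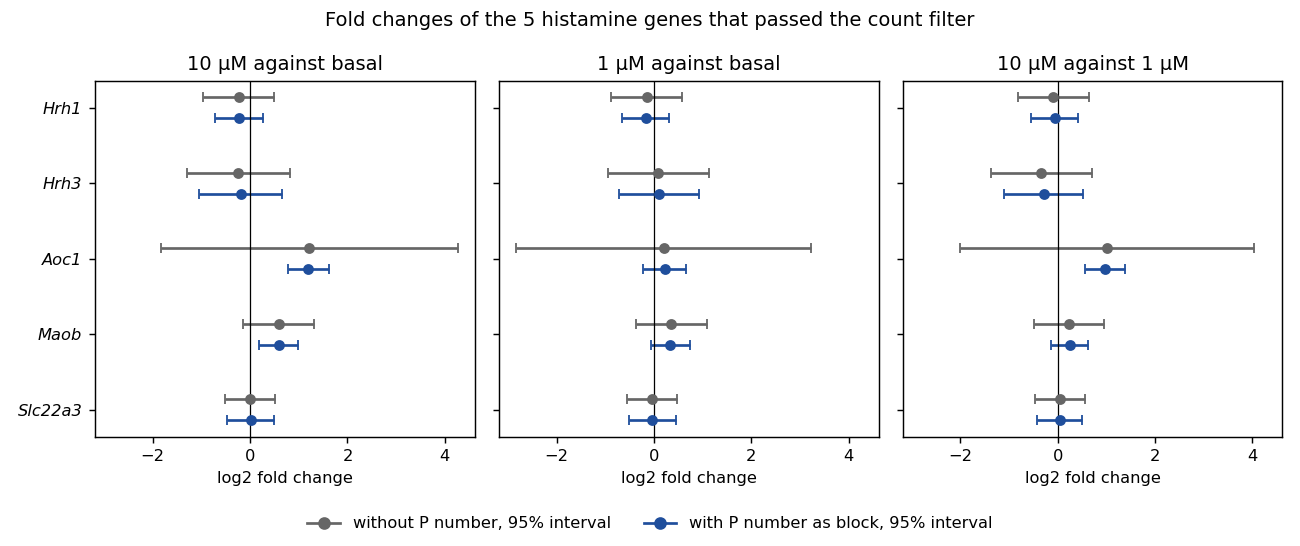
Log2 fold changes (x axis) with 95% intervals of the 5 histamine genes that passed the count filter (y axis), for 10 µM against basal, 1 µM against basal and 10 µM against 1 µM, in the edgeR fit without (grey) and with (blue) the P number. The interval of Aoc1 at 10 µM against basal was -1.83 to 4.26 without the P number and 0.77 to 1.63 with it, while its centre moved little.

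Read against all genes, the fit without the P number called no gene in any of the 3 comparisons, histamine genes included, so its share was 0%. At an unadjusted p under 0.05, edgeR gave 808 genes at 10 µM against basal, 81 at 1 µM against basal and 717 at 10 µM against 1 µM, and DESeq2 called 64, 5 and 66 after adjustment. With the P number, 607 genes (3.96%) were called at 10 µM against basal, 0 at 1 µM against basal and 659 (4.3%) at 10 µM against 1 µM. Against basal these were 202 higher and 405 lower, and 131 higher and 703 lower with library totals as the scaling. Against 1 µM they were 200 higher and 459 lower, and 117 and 809 with library totals. At 1 µM, 582 genes had an unadjusted p under 0.05 in that fit, and DESeq2 with the P number called 8. Aoc1 was 1 of 5 tested histamine genes called at 10 µM in both comparisons, and genes called higher were 1.32% and 1.31% of all tested. No histamine gene's groups failed to overlap at 10 µM against basal, where 9.25% of all genes did not overlap, or at 1 µM against basal, where 2.77% did not.

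The wider pathway was described through 6 lists of 73 symbols, of which 66 were tested. They cover histidine and histamine metabolism, amine transport and storage, polyamine metabolism, the G proteins of histamine receptors, their effectors, and the kinases, arrestins and RGS proteins that dampen receptor signals. In the fit without the P number none of the 66 was called. In the fit with it, 1 was called higher at 10 µM against basal (Carns1) and 4 lower (Plcb1, Plcb2, Plcb4 and Adcy7), where 1.32% of all genes were called higher and 2.64% lower. At 10 µM against 1 µM, 1 was called higher (Carns1) and 3 lower (Plcb4, Adcy7 and Rgs4), where 1.31% and 3% of all genes were called. None was called at 1 µM against basal.

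The 4 genes called lower at 10 µM against basal are all effectors, and 3 of them encode phospholipase C beta enzymes, which Gq activates downstream of H1. The other member of that family, Plcb3, was the most abundant at a mean of 18.6 TPM and was not called (-0.06 ± 0.07, blocked edgeR adjusted p = 0.641). Plcb1 had 44.6, 41.8 and 34.6 CPM in basal, 37.6, 41.0 and 32.1 at 1 µM and 30.4, 25.2 and 28.4 at 10 µM. Every 10 µM library lay below every other. Of all genes tested, 9.25% did not overlap, in either direction, at 10 µM against basal and 8.8% at 10 µM against 1 µM. The share of genes below both groups was not computed. Plcb1 fell by 0.47 ± 0.10 on the log2 scale in the blocked edgeR fit (adjusted p = 0.0388). Plcb4, at 40.6, 35.9 and 33.2 CPM in basal, 40.4, 36.5 and 31.7 at 1 µM and 32.6, 25.7 and 26.8 at 10 µM, fell by 0.32 ± 0.06 (adjusted p = 0.0315). Its 10 µM libraries lay below the basal ones. Plcb2, a form best known from blood cells, had 2.68, 4.30 and 4.18 CPM in basal, 2.88, 3.76 and 3.51 at 1 µM and 1.87, 2.19 and 2.39 at 10 µM and fell by 0.73 ± 0.14 (adjusted p = 0.0343). Its 10 µM libraries also lay below all others. Of 7 tested neuron markers, 3 were called lower at 10 µM in the same fit (Gad2, Gad1 and Stmn2, median of the 7 -0.20), as were 2.64% of all genes. Other medians were -0.53 for endothelial markers (1 of 5 called lower) and -0.46 for mural and fibroblast markers (0 of 6). They were -0.32 for astrocyte markers (2 of 8 called lower) and -0.14 for microglia and macrophage markers (3 of 9). For precursor markers the median was 0.22 (2 of 7 called higher), and for mature oligodendrocyte markers 0.34 (7 of 9). The sum of the neuron markers was lowest in P11 at each dose, as was Plcb2, while Plcb4 was highest there. The part of these cell types in the phospholipase C values was not tested.

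Adcy7, an adenylyl cyclase of the kind that Gs activates, had 7.48, 13.3 and 11.9 CPM in basal, 9.43, 12.4 and 11.6 at 1 µM and 6.09, 7.20 and 8.23 at 10 µM. It fell by 0.53 ± 0.12 on the log2 scale against basal in the blocked edgeR fit (adjusted p = 0.0455) and by 0.58 ± 0.12 against 1 µM (adjusted p = 0.0356). The basal P11 library lay within the range of the 10 µM group. Adcy7 and Plcb2 are also expressed by microglia. Microglia and macrophage markers summed to 657 to 746 TPM at 10 µM against 687 to 969 in basal and 783 to 1014 at 1 µM. In the blocked fit 3 of these 9 markers were called lower at 10 µM against basal and 5 against 1 µM. Of all genes, 2.64% and 3% were called lower there. The part of these markers in the Adcy7 and Plcb2 values was not tested. Rgs4, which shortens Gi and Gq signals, had 2.93, 5.40 and 5.23 CPM in basal, 3.72, 7.44 and 4.55 at 1 µM and 1.94, 4.22 and 2.47 at 10 µM, and fell by 0.81 ± 0.16 against 1 µM (adjusted p = 0.0363).

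Carns1, the carnosine synthase that joins histidine to beta-alanine and is known from oligodendrocytes, had 19.2, 4.50 and 4.18 CPM in basal, 19.0, 4.40 and 4.58 at 1 µM and 25.6, 6.24 and 5.81 at 10 µM. It was highest in P11, the reverse of Aoc1, with a log2 fold change of -2.14 in P13 over P11. In the blocked edgeR fit Carns1 rose at 10 µM against basal by 0.49 ± 0.08 (adjusted p = 0.0223) and against 1 µM by 0.48 ± 0.08 (adjusted p = 0.0228). By dose, mature oligodendrocyte markers moved the same way, with 7 of 9 called higher at 10 µM in that fit (median log2 fold change 0.34), among them Mobp at 0.66 and Mbp at 0.54. By P number, Mobp was lower in P13 than in P11, at -2.38, but the list as a whole moved far less than Carns1. Its sum was 39358, 34743 and 38945 TPM in basal P11, P13 and P14. The part of these markers in the Carns1 levels was not tested.

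Few of the calls at 10 µM against basal were kept over 9 blocked fits that each left out 1 library: Carns1 and Plcb2 were called in 2, Plcb1 and Plcb4 in 1 and Adcy7 in 0. Their log2 fold changes kept their sign in these fits. They ran from 0.47 to 0.53 for Carns1, -0.59 to -0.35 for Plcb1, -0.82 to -0.65 for Plcb2, -0.36 to -0.26 for Plcb4 and -0.65 to -0.42 for Adcy7. Against 1 µM, Carns1 was kept in 4 of 9, Adcy7 in 3, Rgs4 in 2 and Plcb4 in 0. Without the 3 P11 libraries the adjusted p was 0.139 for Carns1, 0.143 for Plcb1, 0.0896 for Plcb2, 0.129 for Plcb4 and 0.0806 for Adcy7.

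**Figure D4:**
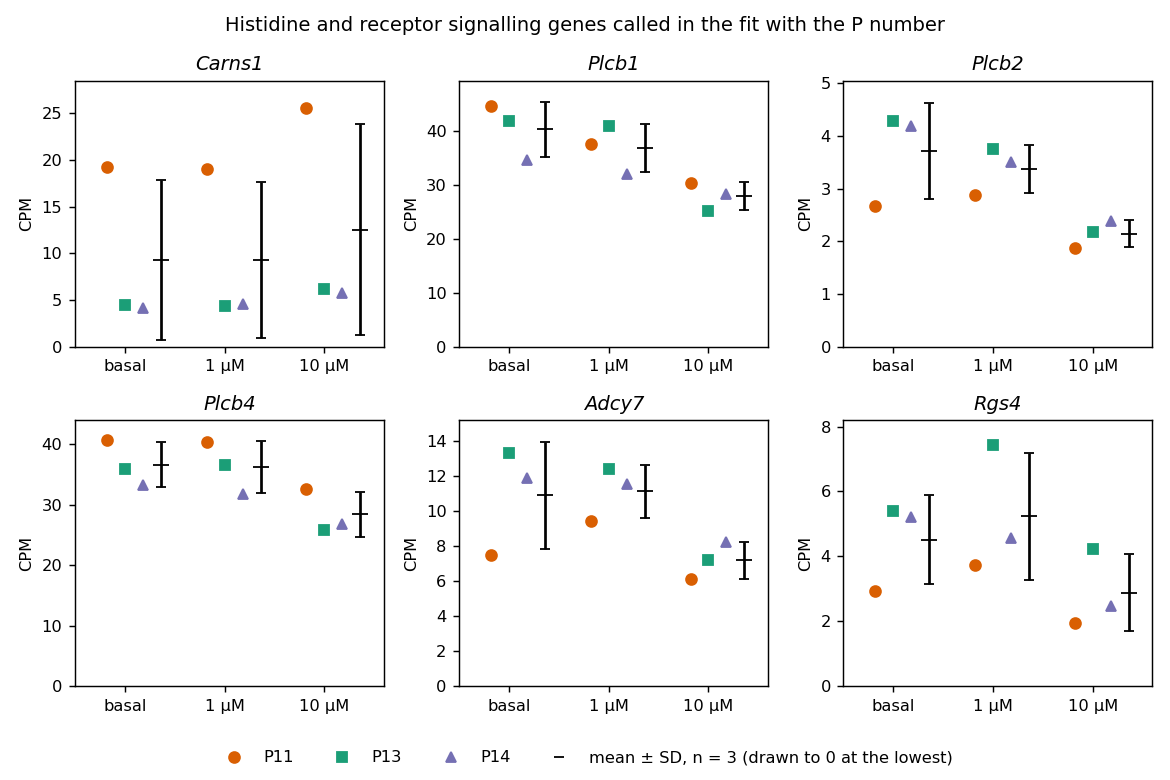
Level in CPM (y axis, linear and separate for each gene) of the 6 pathway genes called in the fit with the P number, by bavisant dose (x axis), 1 symbol per library, with the mean ± SD of 3 libraries. All 10 µM libraries of Plcb1 and Plcb2 lay below the others. In either direction, 9.25% of all genes tested did not overlap at 10 µM against basal and 8.8% at 10 µM against 1 µM. The share of genes below both groups was not computed. Carns1 lay at 19.0 to 25.6 CPM in P11 against 4.18 to 6.24 in P13 and P14.

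The other 61 tested list genes were not called at 10 µM against basal, and some had large values. The widest were Gna14, a Gq-class subunit with 11 to 36 reads, at -1.05 ± 0.29 (blocked edgeR adjusted p = 0.0842), Rgs4 at -0.63 ± 0.17 (0.0753) and Slc22a2 at -0.50 ± 0.30 (0.358). Over whole lists, called genes included, where the median log2 fold change of all genes was -0.01, the medians were 0.01 over 11 genes of histidine and histamine metabolism, 0.02 over 10 of polyamine metabolism and -0.04 over 10 G proteins. They were -0.08 over 10 kinases, arrestins and RGS proteins, -0.16 over 21 effectors and -0.25 over 4 transporters. The transcripts that follow histamine oxidation were abundant, with mean levels of 107 TPM for the aldehyde dehydrogenase Aldh9a1 and 82.3 for Aldh7a1, and the carnosine dipeptidase Cndp2 stood at 100.2. Among polyamine genes, where putrescine is another substrate of diamine oxidase, Sat1 stood at 675 TPM, Oaz1 at 388 and Azin1 at 111.

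The Gi/o subunits that couple to H3 were far more abundant than the receptor, at 480 TPM for Gnai2 and 157 for Gnao1, and the Gs subunit Gnas stood at 455. The highest effectors were the protein kinase genes Prkaca (101 TPM), Prkacb (76.1) and Prkcb (66.6), and the highest of the dampening genes were Rgs16 (51.0), Grk2 (47.6) and Arrb2 (34.2). None of these 9 signalling genes was called at any contrast. Of the transporters, the monoamine transporter Slc29a4 (PMAT) stood at 23.8 TPM and Slc22a2 (OCT2) at 10.8, both with means above that of Slc22a3. The vesicle transporter Slc18a2, which loads histamine into vesicles, stood at 0.194. Slc22a2 ran from 1.16 TPM in 10 µM P14 to 28.9 in 1 µM P11 and was lowest in P14 at each dose. In 10 µM P14 it was below Slc22a3, at 1.42 TPM.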

How the data were processed

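RNA was sequenced from 9 rat OPC libraries, 3 per dose, with the Illumina Stranded mRNA Prep kit per the labels' protocols. The submitters' processing notes name DRAGEN, FastQC, Picard and Trimmomatic and build rn6; versions, counter, strand setting and annotation were not given in the sources used here. As deposited by the authors, the tables held estimated counts per gene, of which 92.4% to 93.0% per library were whole numbers, and a table of TPM values. Reads without molecular identifiers are not independent molecules, so intervals and floors cover counting error only.

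Counts were rounded and tested in R 4.3.3 with edgeR 4.0.16 (quasi-likelihood F test, TMM, filterByExpr with a count minimum of 10 and a total minimum of 15) on all 9 libraries with 1 coefficient per dose. P-values were adjusted by Benjamini-Hochberg over 15321 genes and called under 0.05. The SE is the log2 fold change over the square root of F, and CPM were counts over the library total. Libraries with the same P number deviated together (correlations 0.319 to 0.772 in all 9 same-number pairs, against -0.708 to 0.193 in 18 others), so the fit with the P number as a block is given as well. Chi-square per degree of freedom between libraries of the same dose was 23.8 to 117, so none looks like a repeat deposit of another, which says nothing on whether they are biological replicates.

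Alternatives were DESeq2 1.42.0, DESeq2 size factors, library totals, a minimum mean of 100 reads, no count filter, limma 3.58.1 with a trend on log2 TPM with pseudocounts of 1 and 0.1 and with a TPM minimum of 0.1 in 3 libraries or none, the block alone and combined, and leaving out each library or P11. The block without P11 was chosen after seeing the data. The members and lists were chosen with earlier results of these data known. Named are the 9 members, the list genes called in either fit, the 3 listed genes with the highest mean TPM per list, and per tested member the 3 genes of at least 2 CPM with the highest correlation. Some genes that this rule names are left out of the text. The scripts were tested on simulated data. No genome of build rn6 was used here. Sequences are from RefSeq (GRCr8).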

Additional observations from a re-analysis of the deposited data

How the results depend on the processing

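Of 555 values recomputed for the 5 tested histamine genes under other settings, 479 kept their direction and their side of the threshold, 54 changed sign (none of them called), 18 became called and 4 lost a call. Genes called at 10 µM against basal, at 1 µM against basal and at 10 µM against 1 µM numbered 64, 5 and 66 with DESeq2. With the P number as a block they numbered 607, 0 and 659, with the block and no count filter 715, 0 and 760, with the block and library totals 834, 0 and 926, with the block and DESeq2 964, 8 and 987, and with the block but without P11 10, 0 and 110. Over the fits with the block that left out 1 library, the ranges were 0 to 581, 0 to 2 and 0 to 651, so leaving out 1 library could remove every call. Without the block, the fits that left out 1 library called 0 genes in each comparison. Genes that differed between P numbers ranged from 6118 to 8328 when 1 library was left out. The cause of these differences was not tested. Among the 9 histamine genes the block changed no call other than that of Aoc1. At 10 µM against basal and against 1 µM, the log2 fold change of Slc22a3 turned to -0.042 and -0.010 with library totals, -0.043 and -0.021 with a TPM pseudocount of 1 (with or without the TPM filter), -0.076 and -0.043 with one of 0.1, and -0.038 and -0.018 with the block and library totals. Without P11, Hrh1 turned to 0.0094 and Hrh3 to 0.082 at 10 µM against basal, and Hrh1 to 0.11 at 1 µM (0.044, 0.16 and 0.095 with the block). Over the fits that left out 1 library, the log2 fold changes at 10 µM against basal ran from -0.42 to 0.032 for Hrh1, -0.63 to 0.060 for Hrh3, -0.18 to 0.25 for Slc22a3 and -0.61 to 1.62 for Carns1. At 1 µM against basal they ran from -0.51 to 0.087 for Hrh1, -0.30 to 0.37 for Hrh3, -0.44 to 0.96 for Aoc1 and -0.18 to 0.10 for Slc22a3. At 10 µM against 1 µM they ran from -0.25 to 0.27 for Hrh1, -0.73 to 0.063 for Hrh3, -0.15 to 0.28 for Slc22a3 and -0.60 to 1.58 for Carns1. The wide Carns1 ranges come from fits without the block: with it, they were 0.47 to 0.53 and 0.46 to 0.53. The P number test of Hrh1 (adjusted p = 0.0676) passed without basal P11 (0.0194) and without 10 µM P13 (0.0344), and that of Hrh3 (0.176) without 10 µM P13 (0.0348). Depth limits Hrh2, Hdc and Hnmt, at 10 reads or fewer per library.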

Other observations

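The ratio of CPM to TPM of a gene follows the effective length used for it, up to a factor common to a library. For Hrh1, Aoc1, Maob and Slc22a3 the highest ratio over the 9 libraries was 1.07 to 1.09 times the lowest, near the median of 1.08 over 15155 genes. For Hrh3 it was 1.78 times, from 0.907 to 1.61, and 0.403% of genes reached that spread. The ratio of Hrh3 was high in basal P11 and in 10 µM P14 and near 1 in the other 7 libraries. The TPM of Hrh3 in those 2 libraries is therefore lower, relative to its reads, than elsewhere.

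Across the 9 libraries, which share their P numbers and dose groups, the log2 CPM of Hrh1 and Hrh3 had a Pearson r of 0.89 (0.77 after subtracting the mean of each P number), and Aoc1 and Maob had 0.80 (0.82). These are descriptions over 9 points that are not independent. The genes most like Hrh1 were Spire1, Adgrg1 and Zfpm2 (r of 0.97, 0.95 and 0.94), and those most like Hrh3 were Adgrg1, Ndp and Itm2b (0.92 each). Aoc1 was most like Tmem189, Mdm1 and Ttc9 (0.995, 0.995 and 0.994), Maob most like Leprotl1, Herpud2 and Tra2b (0.98, 0.96 and 0.95), and Slc22a3 most like Stk40, Cpne1 and Pms1 (0.84, 0.83 and 0.82). Such values were common for Aoc1: of 11683 genes compared, 990 had an r over 0.9 with it. The number was 37 with Maob, 21 with Hrh1, 11 with Hrh3 and 0 with Slc22a3. After subtracting the P number means, Aoc1 was most like Ubap1, Trpc4ap and Eif4h (0.99, 0.98 and 0.98), Maob most like Tmbim4, Pam16 and Erh (0.99, 0.98 and 0.98), Hrh3 most like Gnai2, Slc25a33 and Ube2t (0.98, 0.98 and 0.95) and Slc22a3 most like Lin9, Ddx11 and Ankle1 (0.99, 0.96 and 0.96). An r over 0.9 was then reached by 380 genes with Aoc1, 152 with Maob, 22 with Hrh3 and 13 with Slc22a3.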
